A study of Homo sapiens with 15 samples.

Results

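ATF4 and 9 genes that it is known to switch on under stress (ATF5, ASNS, CHAC1, TRIB3, DDIT3, DDIT4, SESN2, VLDLR and NUPR1) were followed on 15 single-colour microarrays of the human cell line ASC52. The members were taken by symbol from a named set of 10 genes. Of these, 9 had a probe set with their symbol among the 17687 genes of the table, each with 1 probe set. No probe set carried the symbol of ATF5, so its expression was not analysed here. ASC52 is a mesenchymal stem cell line derived from adipose tissue and made long-lived with telomerase (hTERT), so every group rests on a single line. The group MSC held undifferentiated cells, seeded in MesenPRO RS. The group MA held cells switched 3 days after seeding to the StemPRO adipogenesis medium for 14 days and then kept for 7 days in control medium, RPMI with 10% FBS. The group DED was differentiated in the same way and then given, for the same 7 days, RPMI with 10% FBS that MDA-MB-231 cells had conditioned (these are a line from a human breast carcinoma). Each group had 5 arrays, and the labels do not say whether each came from its own culture. The p-values therefore measure spread among these samples alone, and that spread may be technical.

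ATF4 is a bZIP transcription factor at the centre of the integrated stress response. Kinases that sense amino acid shortage, unfolded protein in the endoplasmic reticulum, heme shortage or double-stranded RNA phosphorylate the initiation factor eIF2alpha, which slows protein synthesis in general while favouring translation of the ATF4 message. ATF4, often with a C/EBP partner, then binds composite C/EBP-ATF elements in genes of amino acid supply, redox balance, growth restraint and cell death. Because much of the control of ATF4 lies in translation, its mRNA, which is what the arrays measure, is only part of its activity.

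The core of that composite element, written TGATGNAA, was searched on both strands in RefSeq promoter windows (GRCh38.p14, 250 bases before to 50 after each annotated start). It was found in 2 of the 9 members that had a window (ATF5 among them), against 1217 of 27305 genes in the table (4.46%). NUPR1 had no window in the table. The cyclic AMP element TGACGTCA was in the window of 0 of the 9 members, against 2.25% of genes. The sites in ASNS and CHAC1 are printed because these were the only members with a match. The 8 letters of the match are in capitals, and both stretches read 5′ to 3′ on the strand of the gene. The ASNS stretch is chr7:97872429-97872516 on the minus strand, with the match starting at position -68 from the start. The CHAC1 stretch is chr15:40953222-40953309 on the plus strand, with the match starting at -209 and lying on the opposite strand.
ASNS: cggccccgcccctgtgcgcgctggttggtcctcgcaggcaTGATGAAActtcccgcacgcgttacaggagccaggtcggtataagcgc
CHAC1: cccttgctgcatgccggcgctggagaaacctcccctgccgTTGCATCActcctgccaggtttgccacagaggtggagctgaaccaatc
A match is a description of letters and not of binding, and windows of this length do not reach elements that lie farther away.

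Array values were deposited as log2 intensities, so a difference of 1 is a 2-fold change in signal. Correlations between arrays of a group over all genes were at least 0.982. The 612 negative control probe sets had a 95th percentile of 8.31, and the size of a difference whose lower group lies under it is set partly by background. Adipocyte markers rose in MA against MSC in 11 of 11 measured cases and fell in DED against MA in 10. Of 11 carcinoma and epithelial markers, 10 lay under that percentile in all groups (KRT8 was the exception, between 8.94 and 9.16), and their mean was 5.76 to 5.88 over the DED arrays and 5.72 to 5.86 over the MA arrays. How these markers read in MDA-MB-231 cells was not measured.

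In the differentiated cells the ATF4 message and its effectors were low, and in conditioned medium they were high again. MA and DED cells also went through other media than MSC cells, which were seeded in MesenPRO RS. In comparisons with MSC, differentiation therefore cannot be told apart from medium. In MA against MSC, 8 of the 9 measured members fell, where 17.6% of all genes fell and 15.4% rose (limma adjusted p under 0.05), and in these 8 no MA array overlapped any MSC array (14.6% of all genes). In DED against MA the same 8 rose, where 12.9% of all genes rose and 13% fell, and in these 8 genes no DED array overlapped any MA array (8.61% of all genes). The exception in both comparisons was VLDLR. By 2-fold or more, 6 members fell in the first step (5.17% of all genes) and 7 rose in the second (2.8%). At an unadjusted limma p under 0.05, 9 members were higher in DED than in MA and 8 were lower in MA than in MSC. The share of all genes at this looser threshold was not counted, so these 2 counts have no background beside them. The median log2 difference of the 9 members was -1.43 in MA against MSC and 1.81 in DED against MA, while that of all genes was 0.00 and 0.02. Both comparisons use the MA arrays, so they are not independent of each other. In such bulk samples, fewer cells of a kind and less RNA per cell cannot be told apart.

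**Figure D1:**
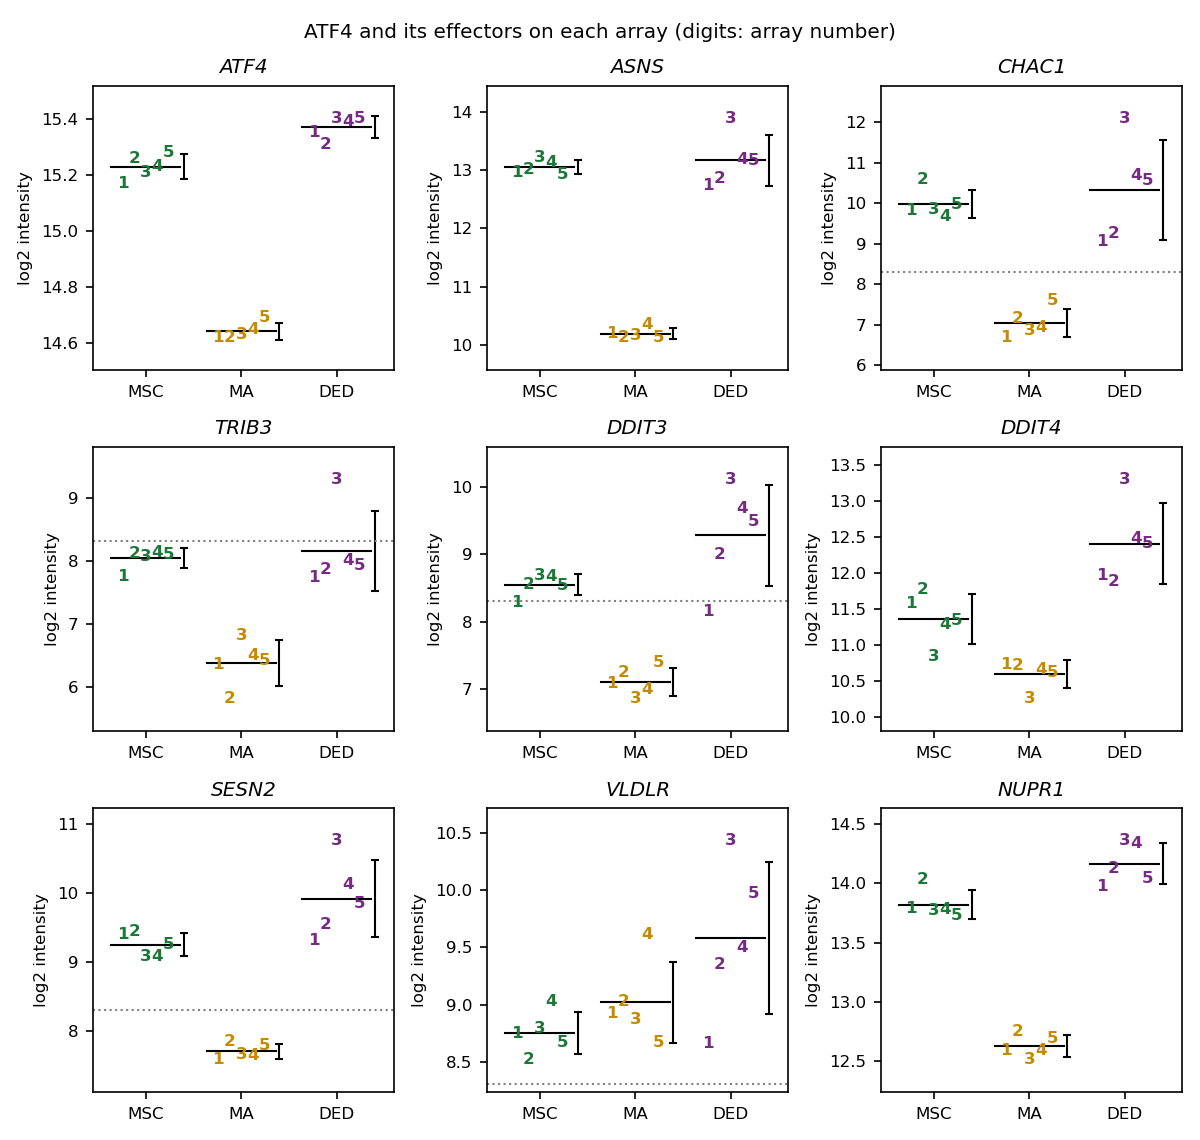
Log2 intensity of each measured member on every array, by group (horizontal axis). Digits are array numbers, horizontal lines are group means, bars are ± 1 SD (n = 5), and the dotted line is the 95th percentile of negative controls (8.31) where it falls in the panel; the vertical axes differ in range. All genes but VLDLR sit lowest in MA, and array 3 is the highest or tied highest DED array in every panel.

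ATF4 itself moved by little but with almost no scatter. It was at 15.17, 15.26, 15.21, 15.23 and 15.28 on MSC arrays 1 to 5, at 14.62, 14.62, 14.63, 14.65 and 14.69 on MA arrays 1 to 5, and at 15.35, 15.31, 15.40, 15.39 and 15.40 on DED arrays 1 to 5. The 3 groups did not overlap, in the order MA, MSC, DED. ATF4 fell by 0.59 in MA against MSC (SE 0.09, limma adjusted p = 1.3e-05) and rose by 0.73 in DED against MA (SE 0.09, adjusted p = 1.5e-06), a 1.66-fold rise. The difference between DED and MSC was 0.14 (95% interval -0.04 to 0.32, adjusted p = 0.24), although the lowest DED array lay 0.03 above the highest MSC array. The moderated SE draws on the spread of other genes, and was larger here than the SD within any group (0.03 to 0.04).

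ASNS, asparagine synthetase, makes asparagine from aspartate and glutamine and is a standard readout of amino acid shortage. Its values were 12.97, 13.02, 13.22, 13.13 and 12.93 on MSC arrays 1 to 5, 10.19, 10.12, 10.16, 10.35 and 10.13 on MA arrays 1 to 5, and 12.74, 12.87, 13.89, 13.19 and 13.17 on DED arrays 1 to 5. Every MA array was at least 2.39 below every DED array and at least 2.58 below every MSC array, and all values lay above the background percentile. In DED against MA the signal was 7.90-fold higher (log2 difference 2.98, SE 0.16, limma adjusted p = 3.5e-11), the 35th largest upward difference of the 17687 genes. DED and MSC overlapped, with a difference of 0.12 (95% interval -0.22 to 0.45, adjusted p = 0.64), which was -0.06 without DED array 3. In the reference table ASNS overlaps the readthrough gene CZ1P-ASNS, from which this signal was not separated.

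CHAC1 encodes a gamma-glutamylcyclotransferase that degrades glutathione. It was at 9.82, 10.57, 9.85, 9.67 and 9.96 on MSC arrays 1 to 5, at 6.68, 7.16, 6.85, 6.92 and 7.59 on MA arrays 1 to 5, and at 9.06, 9.25, 12.08, 10.69 and 10.55 on DED arrays 1 to 5. It had the largest log2 difference of the members in both steps, and the widest scatter within DED, where array 3 was 3.02 above array 1. The difference was -2.93 in MA against MSC (SE 0.39, limma adjusted p = 4.7e-06) and 3.29 in DED against MA (SE 0.39, adjusted p = 1.9e-06). Without DED array 3 the latter was 2.85. MA lay under the background percentile, so these sizes depend on background. DED arrays 1 and 2 were below every MSC array and arrays 3 and 4 above all of them, and the difference between DED and MSC of 0.35 (95% interval -0.47 to 1.17, adjusted p = 0.55) became -0.09 without array 3.

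TRIB3 is a pseudokinase that binds AKT and ATF4 and dampens the response. Its values were 7.76, 8.12, 8.07, 8.14 and 8.11 on MSC arrays 1 to 5, 6.36, 5.81, 6.81, 6.49 and 6.42 on MA arrays 1 to 5, and 7.74, 7.86, 9.29, 8.0 and 7.92 on DED arrays 1 to 5. All but DED array 3 lay under the background percentile of 8.31. TRIB3 fell by 1.66 in MA against MSC (SE 0.23, limma adjusted p = 8.4e-06) and rose by 1.78 in DED against MA (SE 0.23, adjusted p = 5.9e-06). DED arrays 1, 2, 4 and 5 lay within the MSC range or 0.02 below it at the lowest. The difference between DED and MSC was 0.12 (95% interval -0.36 to 0.61, adjusted p = 0.75), and -0.16 without array 3.

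DDIT3, the bZIP factor CHOP, is tied to cell death under lasting stress and, as a C/EBP partner, can block adipogenic C/EBP factors. It was at 8.29, 8.55, 8.68, 8.67 and 8.53 on MSC arrays 1 to 5, at 7.08, 7.24, 6.86, 6.99 and 7.39 on MA arrays 1 to 5, and at 8.15, 8.99, 10.10, 9.67 and 9.49 on DED arrays 1 to 5. DED arrays 2 to 5 were above every MSC array and DED array 1 was below every one. DDIT3 fell by 1.43 in MA against MSC (SE 0.24, limma adjusted p = 8.6e-05) and rose by 2.17 in DED against MA (SE 0.24, adjusted p = 8.7e-07), MA lying under the background percentile. DED was also above MSC, by 0.74 (SE 0.24, adjusted p = 0.024), but this call was lost without MSC array 1 (0.059), DED array 3 (0.073), DED array 4 (0.068) or DED array 5 (0.057). In the reference table DDIT3 overlaps MARS1, a tRNA synthetase gene, and the strand read by the probes is not given in the sources used here.

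DDIT4 (REDD1) and SESN2 (sestrin 2) both restrain the growth kinase mTORC1, DDIT4 through the TSC complex and SESN2 as a leucine sensor acting on GATOR2. DDIT4 was at 11.58, 11.77, 10.84, 11.29 and 11.35 on MSC arrays 1 to 5, at 10.73, 10.72, 10.26, 10.66 and 10.62 on MA arrays 1 to 5, and at 11.97, 11.89, 13.30, 12.48 and 12.41 on DED arrays 1 to 5. The groups did not overlap, in the order MA, MSC, DED, with gaps of 0.11 and 0.12. DDIT4 fell by 0.77 in MA against MSC (SE 0.22, limma adjusted p = 0.0086), was 3.51-fold higher in DED than in MA (1.81, SE 0.22, adjusted p = 1.9e-06) and was 2.06-fold higher in DED than in MSC (1.04, SE 0.22, adjusted p = 0.00065). It was the only member past the test by 2-fold or more in DED against MSC (4.96% of all genes). SESN2 was at 9.40, 9.44, 9.09, 9.09 and 9.26 on MSC arrays 1 to 5, at 7.59, 7.85, 7.66, 7.65 and 7.80 on MA arrays 1 to 5, and at 9.32, 9.55, 10.76, 10.13 and 9.85 on DED arrays 1 to 5. Only DED array 1 fell within the MSC range. SESN2 fell by 1.55 in MA against MSC (SE 0.19, adjusted p = 1.7e-06) and rose by 2.21 in DED against MA (SE 0.19, adjusted p = 2.5e-08), again with MA under the background percentile, and rose by 0.67 in DED against MSC (SE 0.19, adjusted p = 0.0096).

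NUPR1 encodes a small chromatin-associated stress protein. It was at 13.79, 14.03, 13.77, 13.78 and 13.73 on MSC arrays 1 to 5, at 12.59, 12.75, 12.51, 12.59 and 12.69 on MA arrays 1 to 5, and at 13.97, 14.13, 14.36, 14.34 and 14.04 on DED arrays 1 to 5. MSC and DED overlapped only through MSC array 2 and DED array 1. NUPR1 fell by 1.19 in MA against MSC (SE 0.11, limma adjusted p = 1.9e-08), rose 2.91-fold in DED against MA (1.54, SE 0.11, adjusted p = 1.0e-09) and was 0.35 higher in DED than in MSC (SE 0.11, adjusted p = 0.015).

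VLDLR, a receptor that takes up triglyceride-rich lipoproteins and is also a target of the adipogenic factor PPARG, differed from the other members. Its values were 8.75, 8.52, 8.79, 9.03 and 8.67 on MSC arrays 1 to 5, 8.92, 9.03, 8.87, 9.61 and 8.67 on MA arrays 1 to 5, and 8.66, 9.35, 10.43, 9.50 and 9.97 on DED arrays 1 to 5. The 3 groups overlapped, with DED array 1 just below the lowest MA array and DED array 3 the highest of all. The difference was 0.27 in MA against MSC (95% interval -0.23 to 0.77, limma adjusted p = 0.45) and 0.56 in DED against MA (95% interval 0.06 to 1.06, adjusted p = 0.096). The latter passed without DED array 1 (0.79, adjusted p = 0.0062) or MA array 4 (0.71, adjusted p = 0.037), and was 0.35 without DED array 3 (adjusted p = 0.27). VLDLR rose by 0.83 in DED against MSC (SE 0.24, adjusted p = 0.010). VLDLR-AS1 overlaps it in the reference table.

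**Figure D2:**
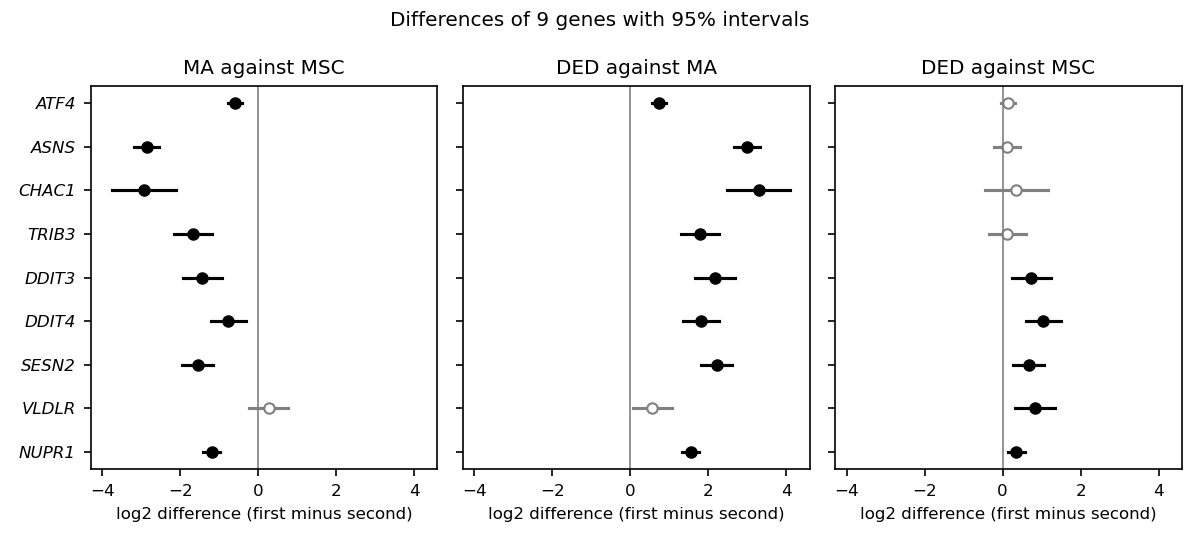
Log2 difference of each measured member (first group minus second) with its 95% interval from limma, 5 arrays per group. Filled black points have an adjusted p under 0.05 and open grey points do not: 8 pass to the left of 0 in MA against MSC, 8 to the right in DED against MA, and 5 in DED against MSC.

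The comparison of DED with MSC sets the levels in conditioned medium beside those of undifferentiated cells, 2 groups that also differ in basal medium. Here 5 of the 9 members were higher in DED (DDIT3, DDIT4, SESN2, VLDLR and NUPR1), where 17.1% of all genes were higher and 16.4% lower, and ATF4, ASNS, CHAC1 and TRIB3 did not pass. For these 4 the intervals reached up to 0.32 for ATF4, 0.45 for ASNS, 1.17 for CHAC1 and 0.61 for TRIB3, so that the data do not show equal levels. In DDIT4 and ATF4 no DED array overlapped any MSC array, where 12.4% of all genes were higher in DED without overlap. The limma fit takes the same spread per gene for all groups, yet the 5 members higher in DED had a larger SD there than in MSC. That SD was 0.75 against 0.16 in DDIT3, 0.56 against 0.17 in SESN2 and 0.67 against 0.19 in VLDLR. In DDIT4 it was 0.56 against 0.35, and in NUPR1 0.18 against 0.12. The SEs may therefore be too small, and the intervals too narrow, where DED scattered most.

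Within DED most members were spread far apart between arrays, and the effectors followed much the same order. Over all genes the median SD was 0.22 in DED, 0.20 in MA and 0.19 in MSC. DED array 3 was the highest DED array in 8 members and tied with array 5 in ATF4, and over all genes it was the highest in 24.9%. DED array 1 was the lowest in 7 members, and array 2 in the other 2 (ATF4 and DDIT4), and over all genes array 1 was the lowest in 26.2%. Array 3 was above every MSC array in 9 of 9 members, array 1 in 2 of 9. The share of all genes for which a single DED array lay above every MSC array was not counted, so these counts have no background beside them. Over all genes array 3 was also the lowest DED array in 25.5%, and array 1 the highest in 24.7%. Both arrays were thus often extreme in either direction, and limma gave them the lowest array weights (0.489 for array 3 and 0.515 for array 1). The median distance from the MA mean over the members was 1.36 for array 1, 1.5 for array 2, 2.91 for array 3, 1.88 for array 4 and 1.81 for array 5. The 8 members that rose in DED against MA also rose without array 3, and without arrays 1 and 3 together.

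The ATF4 message itself did not share that scatter. Its SD within DED was 0.04, and only 1.63% of the 123 genes within 0.5 of its level had a smaller one. The SD of CHAC1 within DED was 1.23, above that of 99.8% of the 1334 genes of like level, and those of TRIB3, DDIT3, VLDLR, SESN2, DDIT4 and ASNS (0.75 to 0.45) were above those of 90.9% to 98.3% of such genes. NUPR1 stood between, with an SD of 0.18, above that of 44.9% of its genes of like level. Adipocyte markers differed between the same arrays. The mean of the 11 measured ones was 10.57 in DED array 1, 9.59 in array 2, 9.25 in array 3, 9.26 in array 4 and 9.37 in array 5, against 11.50 to 11.66 in MA, and 9 of the 11 were highest in array 1. The part of this in the scatter of the members was not tested. Carcinoma and epithelial markers had a mean of 5.84 in array 1 and 5.87 in array 3. No array held MDA-MB-231 cells, so whether these markers would show such cells was not tested.

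**Figure D3:**
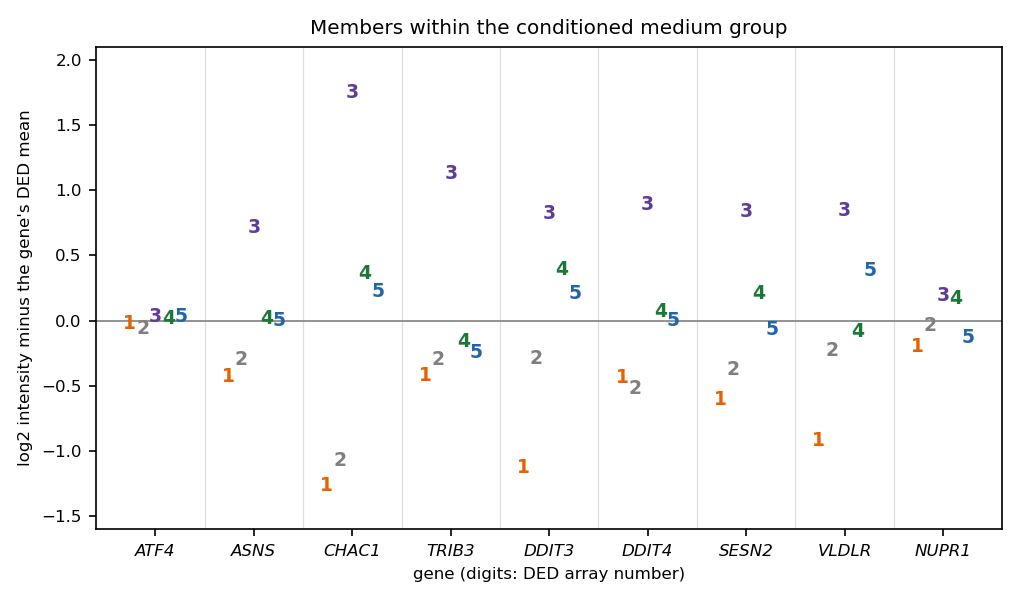
Log2 intensity of each measured member on the 5 DED arrays minus the mean of the gene in DED; digits are array numbers. Array 3 is on top in 8 genes, from 0.19 above the mean in NUPR1 to 1.75 in CHAC1, while the ATF4 arrays span 0.09.

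The rest of the pathway was read from lists of genes by role. Over all genes, 15.4% rose and 17.6% fell in MA against MSC, and 12.9% rose and 13% fell in DED against MA. In DED against MSC 17.1% rose and 16.4% fell. A count near these shares is not a result about a list. Among 36 measured other targets of ATF4, 30 fell and 1 rose in MA against MSC (median -1.32), and in DED against MA 28 rose and the other 8 did not pass (median 1.32). The largest rises were those of the amino acid carriers SLC7A5 by 3.83 (SE 0.32, limma adjusted p = 1.6e-08) and SLC7A11, the cystine carrier, by 3.76 (SE 0.25, adjusted p = 4.7e-10), and of the stanniocalcin STC2 by 3.07 (SE 0.36, adjusted p = 1.3e-06). All 3 lay under the background percentile in MA. In DED against MSC the same list held 6 genes that rose and 6 that fell (median -0.01), among them KLHL24 at 1.62 (SE 0.16, MSC under that percentile), GDF15, a stress hormone, at 1.61 (SE 0.26, both groups under it) and the proline enzyme PYCR1 at -1.26 (SE 0.20). Without DED array 3 these counts were 4 and 9. Array 3 was the highest DED array in 29 of the 36 genes and array 1 the lowest in 28.

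Of 15 measured genes that control eIF2alpha phosphorylation or its effect, 2 rose and 4 fell in MA against MSC (median -0.19), and 3 rose in DED against MA (median 0.04). Of the 3, 2 encode the subunits that bring the phosphatase to eIF2alpha: PPP1R15A (GADD34), itself an ATF4 target, which rose by 1.55 (SE 0.30, limma adjusted p = 0.00059), and PPP1R15B (CReP), which rose by 1.16 (SE 0.12, adjusted p = 3.4e-07). The third, EIF2S1, which encodes eIF2alpha, was at 0.40 (SE 0.13, adjusted p = 0.027), and lost the call under 6 of 24 alternatives, among them leaving out DED array 3. Among the kinase messages, given as the whole set, EIF2AK1 (HRI) fell by 0.30 in MA against MSC (adjusted p = 0.025), EIF2AK2 (PKR) fell by 0.46 (adjusted p = 0.00034) and EIF2AK4 (GCN2) rose by 0.35 (adjusted p = 0.042), while EIF2AK3 (PERK) was at 0.09 (adjusted p = 0.60). In DED against MA the 4 kinases did not pass: EIF2AK1 was at -0.10, EIF2AK2 at 0.19, EIF2AK3 at -0.06 and EIF2AK4 at -0.24 (adjusted p from 0.13 to 0.77). These enzymes act through phosphorylation, which the arrays do not measure.

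Among 12 bZIP partners and relatives of ATF4, 7 rose and 1 fell in DED against MA (median 0.35). CEBPG, the C/EBP partner that lacks an activation domain of its own, fell by 1.39 in MA against MSC (SE 0.12, limma adjusted p = 1.0e-08) and rose by 1.46 in DED against MA (SE 0.12, adjusted p = 1.2e-08). ATF3 rose by 1.91 in DED against MA (SE 0.18, adjusted p = 7.6e-08), but was 7.45 ± 0.32 in MA and 7.41 ± 0.23 in MSC (SD, n = 5, adjusted p = 0.91), both under the background percentile. JUN fell in both steps, by 1.79 (SE 0.15, adjusted p = 4.2e-09) and by 1.25 (SE 0.15, adjusted p = 1.3e-06), with DED under that percentile.

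The ATF6 and XBP1 arms of the unfolded protein response, which raise chaperones and degradation factors of the endoplasmic reticulum, were read from 17 measured genes. Of these 15 fell in MA against MSC (median -1.16), and 10 rose and 1 fell in DED against MA (median 0.63). The largest rises in DED against MA were those of the sensor kinase ERN1 (IRE1) by 2.35 (SE 0.26, limma adjusted p = 7.0e-07), HERPUD1 by 1.56 (SE 0.17, adjusted p = 4.3e-07) and the chaperone HYOU1 by 1.19 (SE 0.15, adjusted p = 4.6e-06). Against MSC, 7 of the 17 were lower in DED and 2 higher (median -0.30). PDIA6, a disulfide isomerase, was lower by -1.52 (SE 0.10), CRELD2 by -1.68 (SE 0.17) and SDF2L1 by -1.70 (SE 0.18), the last 2 with DED under the background percentile.

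**Figure D4:**
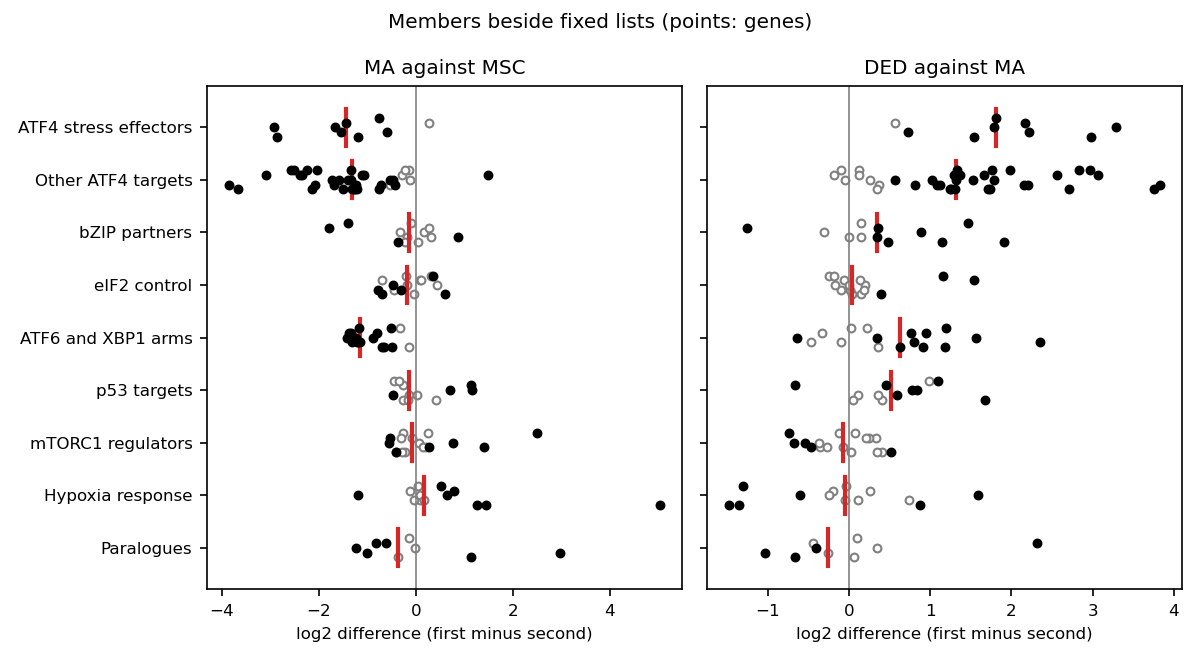
Log2 difference (first group minus second) of every measured gene of the members and of 8 gene lists in both steps. Filled points passed limma at an adjusted p under 0.05, open points did not, and red bars are list medians: in DED against MA the median is 1.81 for the members, 1.32 for other ATF4 targets and 0.63 for the ATF6 and XBP1 arms, and lies between -0.26 and 0.52 for the other lists.

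By Pearson's r over the 15 arrays, the genes outside the set whose pattern was most like the mean of the standardized members were TUBE1 (0.992), PAPPA2 (0.988), CTH (0.985), EIF4EBP1 (0.985), DDAH1 (0.984) and MOCOS (0.984). CTH, which makes cysteine from cystathionine, and EIF4EBP1, a repressor of cap-dependent translation, also stand in the list of other ATF4 targets. The 3 groups are separate clusters, so these r mostly restate group means and carry no test. PAPPA2, a protease of IGF-binding proteins, averaged 9.91 in MSC, 6.94 in MA (under the background percentile) and 10.97 in DED, and the tubulin gene TUBE1 averaged 11.87, 10.49 and 12.40. Each member against the mean of the other members gave 0.911 to 0.990, with VLDLR at 0.405.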

How the data were processed

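Biotin-labelled material made from the RNA of 15 samples was hybridised to single-colour arrays. The authors deposited 1 table of log2 intensity values, which the submitters' processing notes credit to RMA run in the Transcriptome Analysis Console. RMA normalizes between arrays, so a shift shared by all genes cannot be read. Software versions and the build are not given in the sources used. Of 24351 probe sets, 17709 carried 1 symbol, 0 several and 3739 transcript probe sets none, and 2903 were controls. For 20 genes the probe set with the highest mean was kept, leaving 17687 genes. No dim genes were left out.

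The test was that of limma 3.58.1 under R 4.3.3 (lmFit, eBayes, 1 mean per group, all 15 arrays). It was two-sided, with Benjamini-Hochberg adjustment over all genes and a threshold of 0.05. The spread of a gene was taken as equal in all groups. The fit was also run on simulated data with independent noise and the same SD per gene in every group. Those data lack the wider spread and the shared array order of DED, so they cannot test the fit in that respect. With 5 arrays per group, array number sets the precision. Named were all members, the 3 largest changes past the test per list and comparison (fewer are printed), and the 6 genes of most like pattern. Alternatives covered normalization, a dim filter, single probe sets, the spread model, array weights, the samples fitted, the replicate number and each array left out. Members and lists were chosen with earlier results of these data known. Figures used Python 3.11.15 and matplotlib 3.10.9.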

Additional observations from a re-analysis of the deposited data

Results flagged for a closer look

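In 4 of 27 groups of 5 arrays, 1 array lay farther from the nearest other array than Dixon's 95% limit for the share of the range (0.71) allows, where chance gives about 1 in 20 groups. TRIB3 in DED was at 9.29 in array 3, 1.29 above the next array, a gap of 0.83 of the range. TRIB3 in MSC was at 7.76 in array 1, 0.31 below the next array (0.82 of the range). DDIT4 in MA was at 10.26 in array 3, 0.36 below the next (0.77 of the range), and NUPR1 in MSC was at 14.03 in array 2, 0.24 above the next (0.80 of the range). The calls of these genes in DED against MA and in MA against MSC kept their side of the threshold without any 1 array.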

How the results depend on the processing

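Under all 24 alternatives, 15 of which leave out 1 array, the number of members that rose or fell stayed within 1.5 times the value reported in each of the 3 comparisons. Of the single member differences, 636 kept direction and side of the threshold, 4 turned direction, 4 fell short and 4 passed. Without DED array 3, the differences between DED and MSC, none of them past the test, turned to -0.061 for ASNS, -0.086 for CHAC1 and -0.16 for TRIB3, and TRIB3 was at -0.113 without arrays 1 and 3. With any 1 array left out these differences ran up to 0.226 for ASNS, 0.669 for CHAC1 and 0.227 for TRIB3, each without DED array 1. VLDLR in DED against MA passed without arrays 1 and 3 (adjusted p = 0.030), with array weights (0.039), and without DED array 1 or MA array 4. Deviations of same-numbered arrays from their group means correlated at -0.11 to 0.09 over all genes. No shared effect of the replicate number was thus visible, but this cannot show how cultures or runs were matched. With the replicate number as a block, 8 members rose in DED against MA, 8 fell in MA against MSC and 5 rose in DED against MSC. In the same order, calls over all genes went from 4587 to 4440, 5844 to 5663 and 5914 to 5738. At most 1 of 5 arrays correlated best with its own number. Signal over background limits the sizes for CHAC1, TRIB3, DDIT3 and SESN2, whose MA means lay under the negative control percentile.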

Other observations

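Close relatives of the members were also measured. Of 9 measured paralogues, 1 rose and 3 fell in DED against MA (median -0.26, limma), where 12.9% of all genes rose and 13% fell. SESN3, the sestrin that fell by 1.03 (SE 0.22, adjusted p = 0.0012), and SESN1, which fell by 0.67 (SE 0.14, adjusted p = 0.0013), went the other way from SESN2 in both steps: in MA against MSC they rose by 2.98 (SE 0.22) and by 1.14 (SE 0.14). The probe sets of SESN1, SESN3, TRIB2 and CHAC2 lay under the negative control percentile of 8.31 in at least 1 of the groups compared. TRIB2 rose by 2.32 in DED against MA (SE 0.18, adjusted p = 5.1e-09). CHAC2 was lower in DED than in MSC, by -1.27 (SE 0.11, adjusted p = 1.1e-08).

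Other inputs to these genes were read from their own lists. Counts in DED against MA stand beside 12.9% of all genes that rose and 13% that fell, and a count near these shares is not a result about a list. Of 12 measured p53 targets, 6 rose and 1 fell in DED against MA (median 0.52), MDM2 by 1.67 (SE 0.19) and the cell cycle inhibitor CDKN1A by 0.84 (SE 0.20, adjusted p = 0.0033), and 8 of the 12 were highest in DED array 3. Of 13 hypoxia response genes, 2 rose and 4 fell (median -0.05), with VEGFA, which ATF4 can also raise, at 1.59 (SE 0.18) and PDK1 at -1.48 (SE 0.18, DED under that percentile). Among the 7 measured glucocorticoid-responsive genes, 6 were higher and 1 lower in MA than in MSC (median 2.47), where 15.4% of all genes rose and 17.6% fell. DDIT4, a known glucocorticoid target, fell by 0.77 in the same step, and a part of glucocorticoids in its level was not tested. Of 17 other mTORC1 regulators, 1 rose and 4 fell in DED against MA (median -0.07; 0 and 5 without DED array 3), and DEPTOR, an mTOR inhibitor, which was at 2.49 (SE 0.23) in MA against MSC with MSC under that percentile, was at -0.73 (SE 0.23, adjusted p = 0.024), a call lost without any 1 of 5 arrays (MA arrays 3 and 4, DED arrays 2, 4 and 5).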
